A study of Mus musculus with 6 samples.

Results

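Immunoglobulin genes were examined in the hippocampus of 3 p300-ifKO mice and 3 control mice. The genes were chosen by annotation and detection: every gene of the immunoglobulin V, D, J or C type, together with Jchain and Mzb1, that had at least 1 raw count in any of the 6 libraries. Of 266 such genes in the annotation, 45 were detected, out of 32774 genes with at least 1 count in the whole table. They were 24 V genes of 218, 8 J genes of 14, 11 C genes of 13, Jchain and Mzb1, whereas 0 of 19 D genes and 0 of 164 immunoglobulin pseudogenes had a count. The values that chose the genes were thus the counts themselves, and Igkc, Igha, Ighg2c and Jchain were put forward with their levels in these mice already known, so that those levels are a description.

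An ifKO mouse carries floxed alleles that are recombined in the adult by creERT2, a Cre recombinase that needs tamoxifen, under the Camk2a promoter, which is active in excitatory forebrain neurons. In the p300-ifKO mice the floxed gene was Ep300, and per the methods of the study recombined neurons still make a truncated p300. All mice were C57BL/6, aged 3 to 6 months, and were given tamoxifen 5 times, at 20 mg/ml in corn oil. Controls were littermates said to lack creERT2, although the text attached to each control library names that driver. Cells outside the excitatory forebrain lineage, among them any cells that make antibody, are not targeted by the driver.

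An antibody consists of 2 kinds of chain, heavy and light. In each B cell, 1 V segment is joined to a J segment (and, in the heavy chain, a D segment) by recombination of the DNA. A cell and its descendants thus share the V gene of that transcript. Unrelated B cells can use the same V gene, so counts per V gene do not identify a clone. The constant gene then sets the class: Ighm and Ighd encode the μ and δ chains of naive B cells, Ighg and Igha the γ and α chains made after class switching, Igkc the κ light chain and Iglc1 to Iglc3 the λ light chains. Plasma cells, the secreting end stage of the B lineage, carry very large amounts of these transcripts, and Jchain joins the units of secreted IgA and IgM. Plasma cells are known in the meninges around the brain and are scarce in the brain tissue itself.

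The 3 V genes with the most reads of their chain in a p300-ifKO mouse carry the main observation below and are shown for that reason: Igkv1-135 and Ighv3-6, which held most V reads of p300-ifKO replicate 3, and Iglv1, the leading V gene of p300-ifKO replicate 1. The sequences are the coding strand of the last coding exon on GRCm38, up to 300 bases, read from the GENCODE release M21 transcripts. Capitals mark bases that differ from the V gene most like it, or face a gap in it.
Igkv1-135: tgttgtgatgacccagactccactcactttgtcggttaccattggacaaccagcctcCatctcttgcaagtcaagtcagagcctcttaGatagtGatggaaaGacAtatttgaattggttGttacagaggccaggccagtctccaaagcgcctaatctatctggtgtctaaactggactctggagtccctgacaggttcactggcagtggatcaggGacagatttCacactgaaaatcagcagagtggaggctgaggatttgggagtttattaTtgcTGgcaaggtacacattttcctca
Ighv3-6: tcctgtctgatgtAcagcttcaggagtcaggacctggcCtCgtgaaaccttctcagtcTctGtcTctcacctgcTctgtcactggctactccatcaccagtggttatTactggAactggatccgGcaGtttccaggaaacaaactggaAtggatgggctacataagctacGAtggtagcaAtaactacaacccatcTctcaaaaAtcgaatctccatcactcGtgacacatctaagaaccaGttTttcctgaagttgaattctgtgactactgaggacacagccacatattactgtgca
Iglv1: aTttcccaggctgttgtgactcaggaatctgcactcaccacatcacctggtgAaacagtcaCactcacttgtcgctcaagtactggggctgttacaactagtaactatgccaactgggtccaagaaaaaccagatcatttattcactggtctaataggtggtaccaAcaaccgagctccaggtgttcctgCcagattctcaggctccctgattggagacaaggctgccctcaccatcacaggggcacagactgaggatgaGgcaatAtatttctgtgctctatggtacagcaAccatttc
The printed stretch of Igkv1-135 lies at chr6:67610209-67610508 on the plus strand, that of Ighv3-6 at chr12:114288157-114288455 on the minus strand and that of Iglv1 at chr16:19085017-19085316 on the minus strand. Igkv1-135 was 96.7% identical to Igkv1-133 over the coding sequence, Ighv3-6 90.7% to Ighv3-1, and Iglv1 96.3% to Iglv2. A read of 50 bases can be placed on a V gene only where the gene has a 50-base stretch of its own, which held for 63.5% of the stretches of Igkv1-135, 97.1% of those of Ighv3-6 and 77.8% of those of Iglv1. Reads from the shared stretches, and reads carrying many somatic mutations, can be missing from the table.

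Libraries held between 23151568 and 28433823 counts, so the 45 genes, with 421 to 949 raw counts per library, were a very small part of each. Values below are raw counts, or normalized counts (raw counts divided by the DESeq2 size factor of the library), with mean ± SD over mice; the 3 values of a group stand in the order of its replicate numbers. Ep300, the targeted gene, had 1545, 1474 and 2334 normalized counts in control against 478, 1350 and 912 in p300-ifKO mice, so that p300-ifKO replicate 2 was close to the control range. Esr1, part of whose sequence is in creERT2, was between 2416 and 4217 normalized counts in p300-ifKO and between 87.2 and 109 in control libraries. These counts follow the methods of the study, in which controls lack creERT2, rather than the text attached to the control libraries. The deviation of a library from the mean of all libraries ran with exonic length over 13614 genes (Spearman's rho across genes, which are not independent), at −0.62 in p300-ifKO replicate 1 and −0.39 in p300-ifKO replicate 3 against 0.22 to 0.57 in the other 4 libraries. Since p300-ifKO replicates 1 and 3 are also the mice with the most immunoglobulin reads, genes of like length are given beside the levels below. In tissue RNA, a change in the number of cells of a type and a change in RNA per cell cannot be told apart.

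The κ constant gene and the constant genes of IgA and IgG2c had their highest levels in p300-ifKO replicate 3, followed by p300-ifKO replicate 1. Igkc, the κ constant gene (chr6:70726435-70726966, ENSMUSG00000076609), had 3, 2 and 10 raw counts in control against 26, 12 and 131 in p300-ifKO mice. Each p300-ifKO mouse lay above each control mouse, but the gap between the nearest pair was only 12 raw counts in p300-ifKO replicate 2 against 10 in control replicate 3. In normalized counts the groups stood at 5.10 ± 4.45 (SD, n = 3) and 54.9 ± 62.4 (SD, n = 3), and the 3 p300-ifKO mice were 5.48-fold, 2.08-fold and 24.8-fold above the control mean. For the 49 other genes within 20% of its exonic length and above 50 normalized counts on average, the median ratio to the control mean was 1.86, 0.92 and 1.18 in the same mice.

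Igha, the constant gene of IgA (chr12:113254830-113260236, ENSMUSG00000095079), had 1, 0 and 4 raw counts in control against 42, 5 and 125 in p300-ifKO mice. The order of the p300-ifKO mice was that of Igkc, and p300-ifKO replicate 2, with 5 raw counts, was next to control replicate 3, with 4. Its normalized means were 1.69 ± 2.13 (SD, n = 3) and 56.7 ± 58.9 (SD, n = 3), and the p300-ifKO mice stood 26.7-fold, 2.61-fold and 71.2-fold above the control mean, with genes of like length at 1.24, 0.97 and 1.07. Ighg2c, the constant gene of IgG2c (chr12:113285325-113288932, ENSMUSG00000076612), had 4, 5 and 3 raw counts in control against 14, 8 and 79 in p300-ifKO mice, and the groups again did not overlap. Its normalized means were 4.10 ± 1.10 (SD, n = 3) and 32.8 ± 37.8 (SD, n = 3). Relative to control, p300-ifKO mice were 3.67-fold, 1.73-fold and 18.6-fold above the mean, and genes of like length were at 1.55, 0.94 and 1.14.

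Jchain (chr5:88519809-88527891, ENSMUSG00000067149) had 32.8, 36.8 and 20.4 normalized counts in control against 55.9, 39.8 and 53.0 in p300-ifKO mice. The groups did not overlap here either, yet the range was narrow: 1.86-fold, 1.33-fold and 1.77-fold the control mean, with p300-ifKO replicates 1 and 3 nearly equal while their Igkc levels were 27.9 and 126 normalized counts. Genes of like length stood at 1.26, 0.97 and 1.08 times the control mean. Mzb1, a chaperone of antibody assembly in B lineage cells, had between 0 and 3 raw counts per library, and 53.5% of its 50-base stretches occur in another gene, so no order can be read from it.

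**Figure D1:**
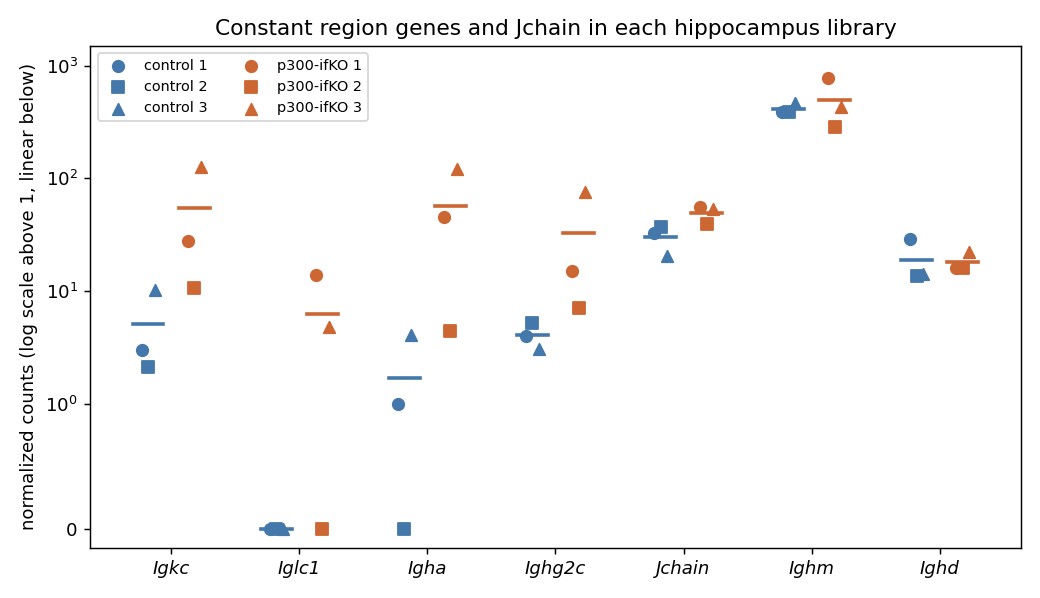
Normalized counts (y axis, logarithmic above 1 and linear below) of 7 immunoglobulin genes in each control (blue) and p300-ifKO (orange) library, with short bars for group means (n = 3 mice). Igkc, Igha and Ighg2c are highest in p300-ifKO replicate 3 and next in replicate 1, whereas Ighm and Ighd overlap between groups.

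The constant genes of unswitched antibody did not follow this order. Ighm (chr12:113418558-113422730, ENSMUSG00000076617) had 388, 386 and 468 normalized counts in control against 779, 285 and 430 in p300-ifKO mice, so that the highest and the lowest library were both p300-ifKO and p300-ifKO replicate 3 lay within the control range. Genes of like length were at 1.40 times the control mean in p300-ifKO replicate 1, where Ighm was at 1.88. Ighd (chr12:113406604-113416324, ENSMUSG00000104213) had 28.8, 13.7 and 14.3 normalized counts in control against 16.1, 15.9 and 22.2 in p300-ifKO mice, with overlapping groups.

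Per length, as RPKM computed here from the raw counts, the exonic length and the library total, Ighm was the highest of these constant genes in all control libraries, with levels of 8.04 to 9.97 against 0.155 to 0.770 for Igkc. In p300-ifKO replicate 3 the RPKM levels of Igkc and Ighm were 9.69 and 9.31. The heavy chain J genes, which lie upstream of Ighm, were seen in 5 libraries, with 7, 3 and 6 raw counts in control against 0, 8 and 10 in p300-ifKO mice: the library with the most Ighm counts, 725, had 0 counts on heavy chain J genes. Among light chain J genes, only Igkj1 exceeded 1 raw count in a library, with 5 in p300-ifKO replicate 3. Apart from Ighj2, with an exonic length of 100 bases, the heavy chain J genes detected were 48 to 54 bases long, close to the read length.

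The make-up of the constant region reads differed between mice. Ighm took between 91.0% and 95.6% of heavy chain constant counts in 5 libraries and 66.2% (95% Wilson interval 62.5 to 69.6, 674 counts) in p300-ifKO replicate 3. Control libraries held 367 to 459 raw counts on Ighm, beside 3 to 11 on light chain constant genes and 0 on heavy chain V genes. Whether the Ighm reads came from assembled antibody transcripts was not tested. Among switched heavy chain counts, Igha held 75.0% (62.3 to 84.5, 56 counts) in p300-ifKO replicate 1 and 61.0% (54.2 to 67.4, 205 counts) in p300-ifKO replicate 3, and Ighg2c nearly all of the rest, so both carried a mixture of IgA and IgG2c transcripts. The 2 intervals overlap. In the control mice only 6 or 7 switched counts were found per library, too few to order the classes. Ighg2b had 1 raw count in each of 3 libraries, and Ighg1 and Ighg3 had 1 raw count in 1 control library each.

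The light chains separated the 2 mice. Igkc held 95.6% (90.8 to 98.0) of 137 light chain constant counts in p300-ifKO replicate 3 and 61.9% (46.8 to 75.0) of 42 in p300-ifKO replicate 1, intervals that do not overlap. The remainder in p300-ifKO replicate 1 was mostly Iglc1 (chr16:19061618-19062071), a λ constant gene with 13 raw counts there, 5 in p300-ifKO replicate 3 and 0 in the other 4 libraries. Every 50-base stretch of Iglc1 is its own, so these reads are not shared with Iglc2 or Iglc3. Iglc3 had 3 raw counts in p300-ifKO replicate 1 and at most 1 elsewhere, and Iglc2 at most 1 in any library. All these intervals cover counting error only, since reads made by PCR without molecular identifiers are not independent molecules.

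**Figure D2:**
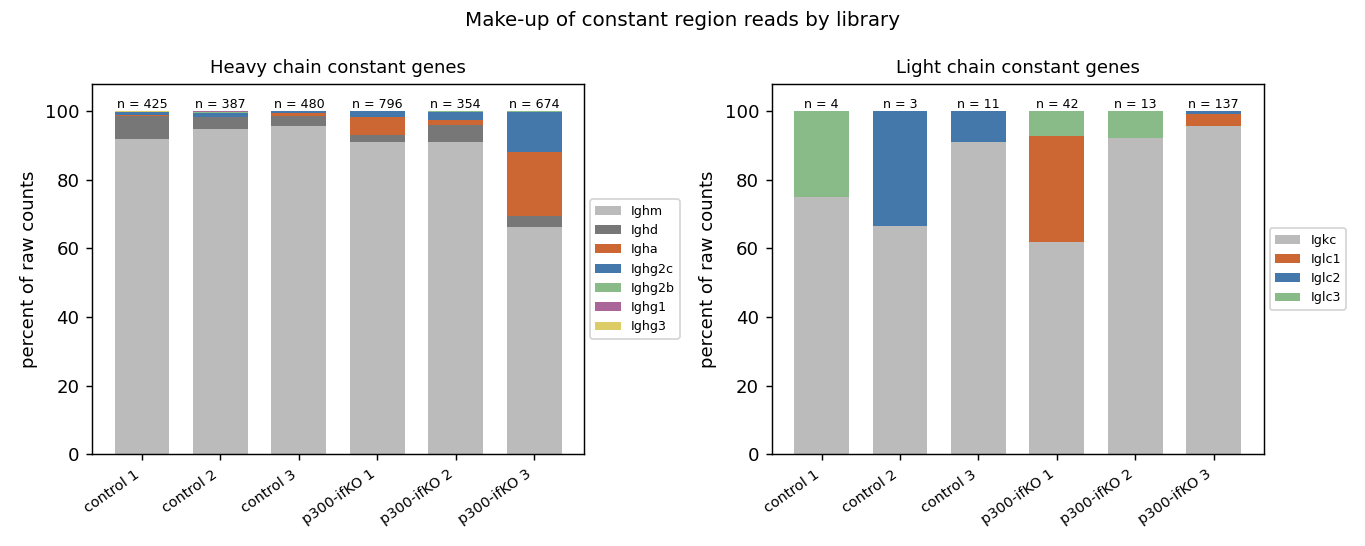
Share of raw counts (percent, stacked from 0) on each heavy chain constant gene (left) and light chain constant gene (right), with the number of counts above each bar. In p300-ifKO replicate 3 Igha and Ighg2c reduce the Ighm share to 66.2%, and in p300-ifKO replicate 1 Igkc holds 61.9% of light chain counts, with most of the rest on Iglc1.

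Whether the signal came from few or many V genes was asked mouse by mouse, and 2 different pictures emerged. In p300-ifKO replicate 3, 66 V reads fell on 9 V genes, with 35 on Igkv1-135 and 21 on Ighv3-6, both at 0 in the other 5 libraries. In p300-ifKO replicate 1, 14 V reads fell on 11 V genes, with at most 3 on any of them. The control mice had 5, 1 and 5 V reads and p300-ifKO replicate 2 had 1, too few to describe a repertoire.

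In p300-ifKO replicate 3, Igkv1-135 held 83.3% (95% Wilson interval 69.4 to 91.7) of 42 κ V reads, and Ighv3-6 held 87.5% (69.0 to 95.7) of 24 heavy chain V reads. The next V genes were Igkv6-32 with 3 reads and Ighv9-3 with 2, and the other 5 had 1 each. In RPKM, Ighv3-6 stood at a level of 2.36 in this library, against 2.34 for Ighg2c and 1.84 for Igha, and Igkv1-135 at 3.50 against 9.69 for Igkc. The heavy V level was thus of the size of each switched constant gene, and the κ V level below that of its constant gene. Part of the sequence of Igkv1-135, shown above, is shared with Igkv1-133, which had no count in any library.

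In p300-ifKO replicate 1 the leading V gene was Iglv1, with 3 raw counts, the only λ V gene detected in any library and found in the mouse with the most Iglc1. In p300-ifKO replicate 3, the other mouse with Iglc1 reads, Iglv1 had 0 counts. The 7 κ V reads of p300-ifKO replicate 1 fell on 7 different genes, so that its leading share was 14.3% (2.6 to 51.3). The interval of a leading share ignores that the gene was picked from the same counts. No difference between the mice is therefore read from such intervals. Among its 4 heavy chain V reads, 2 were on Ighv1-39 and 1 each on Ighv1-18 and Ighv8-5.

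**Figure D3:**
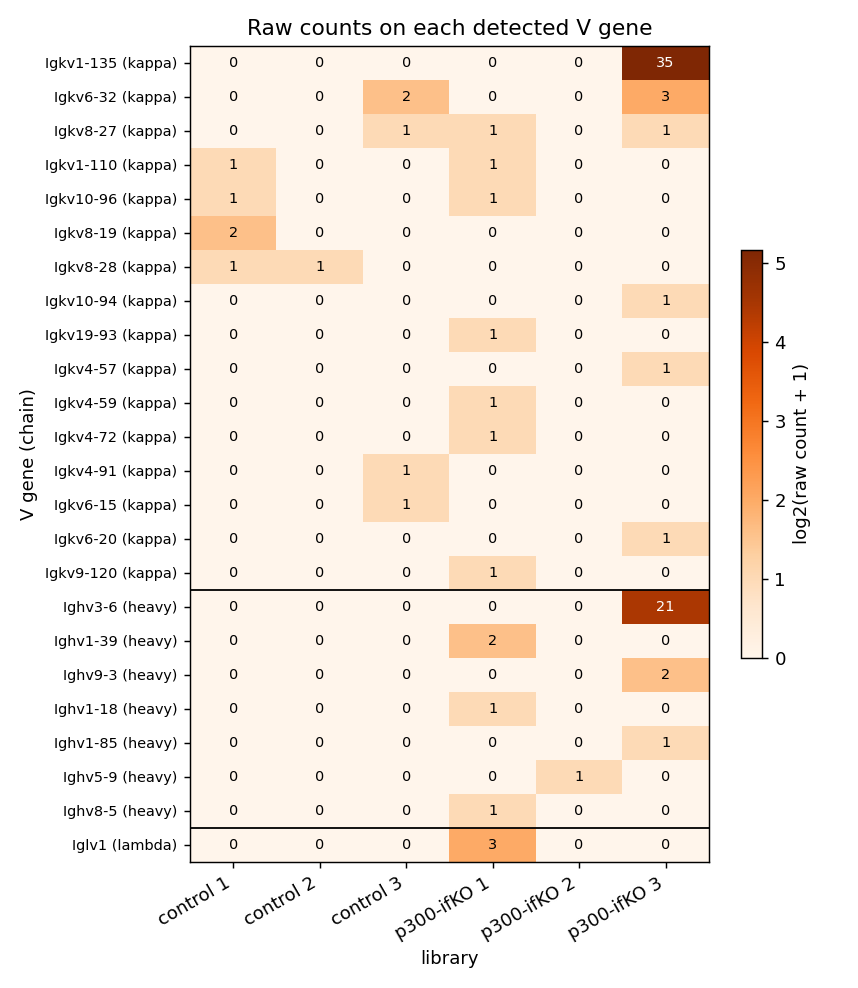
Raw counts on each of the 24 detected V genes (rows, grouped by chain) in each library (columns), coloured by log2(raw count + 1). Igkv1-135 with 35 counts and Ighv3-6 with 21 stand out in p300-ifKO replicate 3, and p300-ifKO replicate 1 holds single counts spread over many rows.

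To compare libraries of unequal V reads, the number of V genes expected in a smaller draw of reads was computed exactly. In 14 V reads, p300-ifKO replicate 3 would show 3.96 V genes, against 11 found in p300-ifKO replicate 1. In 5 V reads the values were 2.58 and 4.59, and control replicates 1 and 3 each had 4 V genes in 5 reads. The inverse Simpson index, the number of equally used V genes that would give the same concentration, was 2.59 in p300-ifKO replicate 3 and 8.91 in p300-ifKO replicate 1. Over all chains the share of the leading V gene was 53.0% (41.2 to 64.6) and 21.4% (7.6 to 47.6), and these 2 intervals overlap, as the first mouse divides its reads between 1 κ and 1 heavy chain gene.

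Of the 24 V genes, 19 were seen in 1 library only. Since 13 had a single count over all libraries, and 4 libraries held 5 V reads or fewer, that number is largely set by depth and says little about sharing between mice. Igkv8-27 was the only V gene found in both p300-ifKO replicates 1 and 3, which is 9.1% of the V genes of the first and 11.1% of those of the second. Control replicate 1 was led by Igkv8-19 and control replicate 3 by Igkv6-32, with 2 reads each. The next by symbol, with 1 read each, were Igkv1-110 and Igkv10-96 in the first and Igkv4-91 and Igkv6-15 in the second, and control replicate 2 had 1 read, on Igkv8-28. The single V read of p300-ifKO replicate 2 was on Ighv5-9. With so few reads, an absent V gene was not detectable at this depth rather than shown to be missing.

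**Figure D4:**
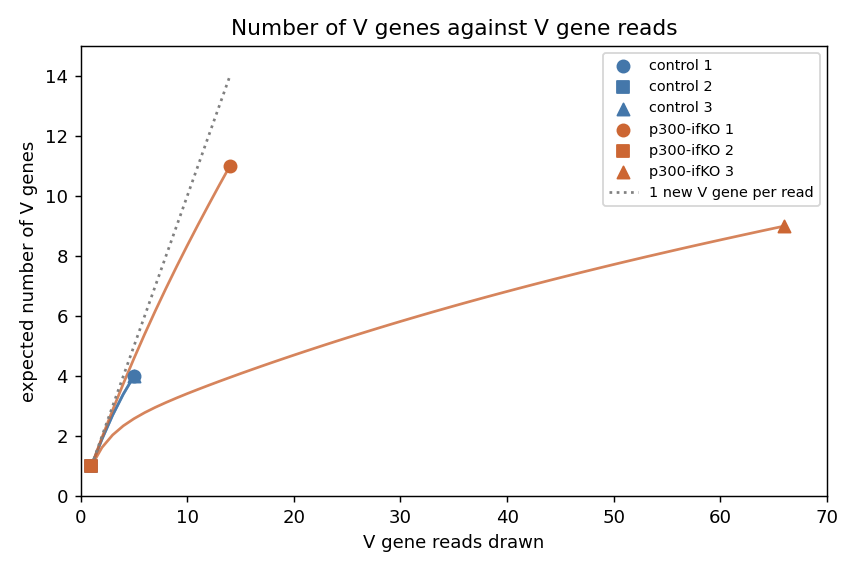
Expected number of V genes (y axis) in a draw of V reads (x axis) from each library, computed exactly, with the symbol at the full number of V reads. The curve of p300-ifKO replicate 3 flattens and reaches 9 V genes in 66 reads, whereas that of p300-ifKO replicate 1 stays near the dotted line of 1 new V gene per read and reaches 11 in 14.

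Across all genes, the group difference of no immunoglobulin gene passed the threshold. In DESeq2 (Wald test, Benjamini-Hochberg adjustment over 32773 genes), 0 of the 45 genes had an adjusted p under 0.05, where 2 of all genes (0.0061%) did, Esr1 and Arsi. At an unadjusted p under 0.05, 5 of 45 were higher and 0 lower in p300-ifKO, beside 0.772% of all genes for higher. The 5 were Iglc1, which had 0 control counts, and the 4 genes put forward for their levels, so nothing is read from this count. The edgeR quasi-likelihood test, whose filter kept 4 of the 45, called 0 immunoglobulin genes and had 2 at an unadjusted p under 0.05. Of all genes it kept, 394 of 17131 were under that p. Igkc and Jchain, put forward for their levels, were among the 4 kept, so nothing is read from the 2. Every p300-ifKO library lay above every control library for 4 of 45 genes (Igkc, Igha, Ighg2c and Jchain) and for 3.21% of all genes, and nothing is read from that count either.

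The log2 fold changes of p300-ifKO against control were 3.43 (SE 0.89) for Igkc, 5.06 (SE 1.60) for Igha, 3.00 (SE 0.89) for Ighg2c and 0.72 (SE 0.36) for Jchain, and DESeq2 put the adjusted p of all 4 at 0.991. Ighm was at 0.26 (SE 0.32, adjusted p 0.991 in DESeq2), a difference smaller than the spread between mice. Ighd was at −0.07 (SE 0.51, adjusted p 0.997 in DESeq2) and turned positive under 6 other settings, so it has no direction. For 31 of the 45 genes both groups had 3 counts or fewer in all, and no fold is given. Of the other 14, with genes absent from 1 group set to a floor of 3 counts over that group, 11 were above 0 and 3 below, with a median of 1.40, beside −0.05 over all genes. Some of the 14 exceeded that floor in 1 group only, and 4 were put forward for their levels, so the median is a description.

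The number called was not the same under every setting. With p300-ifKO replicate 2, the mouse with Ep300 nearest to the control range, left out and independent filtering also off, a pair of changes chosen after seeing the data, 3 immunoglobulin genes passed in DESeq2: Igkc (log2 fold change 3.92, adjusted p 0.000666), Igha (5.61, adjusted p 5.63e-07) and Ighg2c (3.49, adjusted p 0.0157), with 119 genes called in all. With default filtering the same fit gave these 3 genes no adjusted p, and filtering off with all 6 libraries called 0 immunoglobulin genes. Once p300-ifKO replicate 2 is left out, the trend with exonic length runs with genotype, and the 2 cannot be told apart. Its rho was −0.62 and −0.39 in the p300-ifKO libraries kept, against 0.22 to 0.57 in control libraries. With all 6 libraries and the replicate number as a block, Igkc and Igha passed (adjusted p 0.0450 and 0.000151 in DESeq2), although the numbers were not taken as pairs. Without p300-ifKO replicate 3 the log2 fold changes of Igkc, Igha and Ighg2c were 1.91, 3.86 and 1.43, so that this mouse carried much of each. Summed over switched heavy chain genes, the ratio of the group means was 13.2, and over light chain genes 10.3. Without p300-ifKO replicate 3 these ratios were 5.31 and 4.62, and the light chain ratio was 17.6 without control replicate 3.

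Among the genes that mark cells of the B lineage, other than the antibody genes themselves, no gene of the plasma cell or B cell list was higher in every p300-ifKO mouse than in every control mouse. Of all genes 3.21% were, so little is read from none in such short lists. Of the 13 plasma cell genes, 0 passed the threshold and 0 had an unadjusted p under 0.05, and their median log2 fold change was 0.09. The summed level was 3786 to 4243 normalized counts in control and 3775 to 4485 in p300-ifKO libraries, most of it from Xbp1 and Txndc5, which act in the secretory pathway of many cells, with log2 fold changes of 0.06 (SE 0.15) and 0.09 (SE 0.13). Sdc1, which encodes the plasma cell surface protein CD138, had 24, 16 and 35 raw counts in control against 13, 16 and 16 in p300-ifKO mice. In normalized counts each p300-ifKO mouse lay below each control mouse, as was so for 1122 of all 32774 genes, and nothing is read from that. Tnfrsf17, the receptor BCMA of plasma cells, had 5, 8 and 2 raw counts in control against 17, 4 and 7 in p300-ifKO mice, highest in p300-ifKO replicate 1. Sdc1 and Tnfrsf17 were named after their values were seen, and neither stands for the list. Of its 13 genes, 8 had a log2 fold change above 0 and 5 below.

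Of the 12 B cell genes, 0 passed the threshold, with a median log2 fold change of −0.01. Their summed level was 101 to 131 normalized counts in control and 67.7 to 136 in p300-ifKO libraries, the lowest in p300-ifKO replicate 1. The defining genes Ms4a1 and Cd79a had between 0 and 6 raw counts in each library. The most abundant of the list, Bank1 and Fcer2a, were at −0.11 (SE 0.40) and −0.65 (SE 0.64) on the log2 scale. Of 8 genes for V(D)J recombination, the surrogate light chain and class switching, 0 passed the threshold, and Vpreb2, of the surrogate light chain, had 0 counts in all libraries. Rag1 and Dntt, which act in the joining of the segments, had 1 to 10 and 2 to 9 raw counts per library with overlapping groups.

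Genes that bind or carry antibody were represented mainly by Fc receptors of microglia and other myeloid cells. Of 9 such genes, 0 passed the threshold. All 9 had a log2 fold change above 0, with a median of 0.49, beside −0.05 over all genes. Pigr and Fcamr entered both values through 1 raw count each, in p300-ifKO replicate 3, which fixed their sign. Fcgr4 had 0 to 7 raw counts per library. No direction is read from those 3 genes, and nothing is read from the sign count or the median. Genes of like length were not compared for this list. Fcgr3, a receptor for IgG, had 233, 224 and 233 raw counts in control against 438, 286 and 361 in p300-ifKO mice, or 0.60 (SE 0.24) on the log2 scale, which did not pass (adjusted p 0.991 in DESeq2). Fcgrt, which encodes the neonatal Fc receptor, was at 0.06 (SE 0.21). Pigr, the receptor that carries IgA across epithelia, had 1 raw count in the 6 libraries. The 13 genes for the niche and homing of plasma cells were summed to 2302 to 2459 normalized counts in control and 1939 to 2124 in p300-ifKO libraries, lower in each p300-ifKO mouse, and 0 passed the threshold. Most of that sum was Cxcl12, a chemokine that retains plasma cells, with 1605 to 1806 normalized counts in control and 1265 to 1463 in p300-ifKO libraries. Of the 13 genes, 6 had a log2 fold change above 0 and 7 below, with a median of −0.05. No direction of the list is read from the sum. The most abundant genes of the list were Cxcl12, at −0.32 (SE 0.13), and Ccl25, at −0.05 (SE 0.20).

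Tissue at the border of the hippocampus varied between libraries. The choroid plexus list was summed to 834 to 3916 normalized counts in control and 1478 to 5637 in p300-ifKO libraries. Ttr, its most abundant gene, had 650, 112 and 2748 raw counts in control against 770, 1027 and 4654 in p300-ifKO mice, and was highest in control replicate 3 and p300-ifKO replicate 3, which are also the mice with the most Igkc in their groups. Between p300-ifKO replicates 1 and 2 the order was reversed: replicate 1 had less Ttr, 770 against 1027 raw counts, but more Igkc, 26 against 12. Kl, the next most abundant gene of the list, was at 0.09 (SE 0.24) on the log2 scale, and 0 of the 9 genes passed the threshold. The meninges list was summed to 2432 to 4296 normalized counts in control and 1789 to 2874 in p300-ifKO libraries, ranges that overlap. Log2 fold changes were below 0 for 10 of 10 genes, beside a median of −0.05 over all genes, and 0 passed the threshold. Genes of 1 tissue are not independent and genes of like length were not compared, so nothing is read from that sign count. Dcn and Col1a2 were at −0.56 (SE 0.24) and −0.34 (SE 0.39). The part of choroid plexus or meningeal tissue in the immunoglobulin levels was not tested.

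Blood and other immune cells were read in the same way, and 0 genes of these lists passed the threshold. The red blood cell list, led by Hbb-bs and Hba-a1, was summed to 2122 to 4070 normalized counts in control and 1433 to 3580 in p300-ifKO libraries, with log2 fold changes below 0 for 7 of 7 genes. The neutrophil list, led by S100a9 and Mpo, was summed to 11.6 to 31.6 and 27.9 to 44.4, and Elane had 0 counts throughout. The T cell list, led by Lck and Trac, was summed to 80.9 to 129 and 91.0 to 156. The border macrophage list, led by Mrc1 and Cd163, was summed to 123 to 265 and 126 to 182, and the microglia list, led by Csf1r, to 8344 to 9095 and 8998 to 9474. Camk2a and Slc17a7, of excitatory neurons, were at −0.01 (SE 0.14) and 0.07 (SE 0.12) on the log2 scale.

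**Figure D5:**
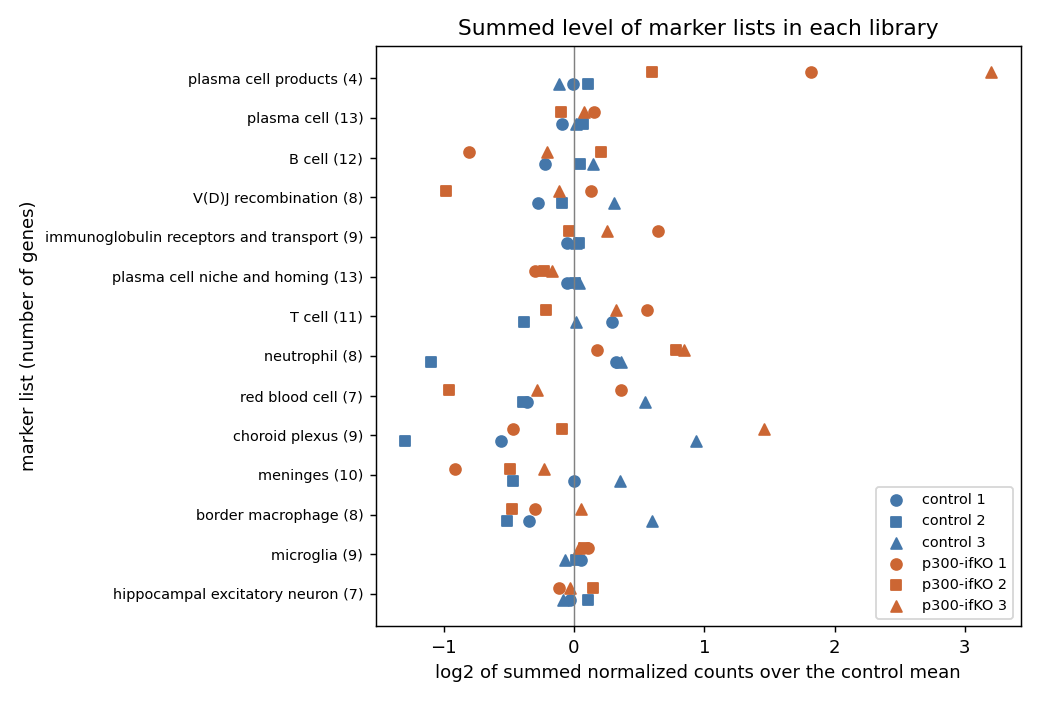
Log2 of the summed normalized counts of each marker list over its control mean (x axis) for the 6 libraries, with the number of genes of each list. The 4 antibody products (top row), put forward for their levels, reach the highest values, in p300-ifKO replicates 3 and 1. In those mice the plasma cell sum, mostly Xbp1 and Txndc5, and the B cell sum stay near 0 or below it. No contrast between the rows is read, since the top row was chosen by its levels.

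T cell receptor genes, which are assembled by the same recombination in T cells, served as the most similar gene class. Of 226 in the annotation, 24 were detected, and 0 had an adjusted p or an unadjusted p under 0.05 in DESeq2. Their summed counts were 54, 37 and 41 in control against 45, 42 and 48 in p300-ifKO mice, with overlapping groups. V genes of the T cell receptor took 4 to 9 reads per library on 3 to 6 genes, with at most 4 on any of them, where Igkv1-135 and Ighv3-6 had 35 and 21 in p300-ifKO replicate 3. The difference between the immunoglobulin and T cell receptor genes was not itself tested.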

How the data were processed

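Hippocampal RNA was sequenced by the authors as single-end reads of 50 bases, with 1 library per mouse. The deposited table held raw counts per gene: per the methods of the study the authors trimmed reads with Trim Galore (version 0.6.4), aligned them with STAR (version 2.6.1) to GRCm38, kept reads with a mapping quality above 10 and counted exonic reads with Rsubread on Ensembl release 99. That quality limit removes reads matching several V genes. A strand setting is not given in the sources used here. A deposited column gives exonic length, a value in bases.

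Symbols and gene types came from GENCODE release M21 (same build), which matched 99.41% of identifiers. DESeq2 (version 1.42.0, R 4.3.3) compared the groups with a two-sided Wald test, median-of-ratios size factors, default filtering and a threshold of 0.05. edgeR (version 4.0.16) and limma-voom (limma version 3.58.1) were alternatives. The fits were tested on simulated data. V gene diversity and shares have no test. Members, gene lists and tests were chosen with earlier results of these data known.

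Named genes were Igkc, Igha, Ighg2c, Jchain, Ighm, Mzb1, the other C genes detected, the 3 V genes with most counts per library, and of each marker list the 2 with the highest mean (1 item is not reported here). Others, such as Igkv8-27, Ighv8-5, Ighv9-3, the J genes, Ep300, Esr1, Sdc1, Tnfrsf17, Ms4a1, Cd79a, Vpreb2, Pigr and Elane, were named after their values were seen. The deviations of same-numbered mice correlated at 0.365, −0.372 and 0.158 for replicates 1, 2 and 3. As 1 of the 3 was below 0, the replicate numbers were not taken as pairs.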

Additional observations from a re-analysis of the deposited data

How the results depend on the processing

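The number of immunoglobulin genes called was 0 in DESeq2 and 0 under 14 alternatives, among them edgeR, limma-voom, TMM factors, other filters, a threshold of 0.1 and leaving out each library. Of the 45 genes, edgeR with its filter, limma-voom and the minimum of 10 counts in 3 libraries tested 4, and DESeq2 gave 1 an adjusted p without p300-ifKO replicate 2. It was 2 with the replicate block (Igkc at 3.22, adjusted p 0.0450, and Igha at 5.01, adjusted p 0.000151, in DESeq2), though the numbers do not pair the mice, and 3 without p300-ifKO replicate 2 with independent filtering off. The number of genes called overall was 2, and 4 with the block. Leaving out p300-ifKO replicate 2 gave 926 genes with default filtering and 119 without it, and leaving out control replicate 1 gave 3. In the fits without p300-ifKO replicate 2, the trend with exonic length runs with genotype, as given above. Directions of Igkc, Igha, Ighg2c, Jchain and Mzb1 held under the alternatives that gave them a value, with log2 fold changes of 1.91 to 4.43, 3.86 to 6.80, 1.43 to 3.49, 0.51 to 0.90 and −1.96 to −0.64 in that order.

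Ighm changed sign without p300-ifKO replicate 1, and its values without 1 library ranged from −0.21 to 0.55. Ighd changed sign under limma-voom (0.00032) and the replicate block (0.00017), without control replicate 1, and without p300-ifKO replicate 1 or (with independent filtering on or off, 0.020) replicate 2, and ranged from −0.25 to 0.37 without 1 library. With at least 3 counts required, the V genes detected were 0 in all control libraries and p300-ifKO replicate 2, 1 in p300-ifKO replicate 1 and 3 in p300-ifKO replicate 3. At the V reads of the poorest library, which is 1 read, every library has 1 V gene by construction. The expected numbers in 5 V reads (2.58 and 4.59) and in 14 (3.96), added after seeing the data, stood apart from the full counts by construction. Adding V pseudogenes could not change any value, as 0 of 158 had a count. Keeping only the 20 V genes with mostly own sequence left the leading shares within their intervals and the inverse Simpson indices within 1.5 times. Depth limits every statement on V genes outside p300-ifKO replicates 1 and 3.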
